A study of Homo sapiens with 20 samples.

Results

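RNA silencing and P-body genes were followed here as 10 named genes among the 36346 gene names of the deposited tables. They were TNRC6A, TNRC6B, TNRC6C, AGO1, AGO2, AGO3, DICER1, LSM14A, LSM14B and DDX6, taken by name in each of the 20 libraries. TNRC6A and LSM14A were chosen because both rose in SW480 cells after POLR1D silencing, so their SW480 differences from SCR are given as a description with no p value. The other 8 are their paralogs and partners. The values, called normalized read counts here, came from the authors' scaling of counts by DESeq2, done separately for HT29 and for SW480. Where a name had several rows, the sum was taken.

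The study silenced POLR1D, a subunit shared by RNA polymerases I and III, in HT29 and SW480, which are human colorectal cancer cell lines, and sequenced the captured coding transcriptome. HT29 carries a focal amplification that holds POLR1D, and SW480 carries a gain of the whole chromosome. Cells of both lines received siRNA by transient reverse transfection with Lipofectamine RNAiMAX and were harvested 72 h later. The control was a scrambled siRNA (SCR) with 4 libraries in HT29 and 6 in SW480. The siRNA siPOLR1D-2 had 2 libraries in HT29 and 3 in SW480, and siPOLR1D-3 had the same numbers, so that 4 HT29 and 6 SW480 libraries were silenced. All groups, the controls included, had therefore been given a small RNA that enters the pathway described here. The labels do not say that replicates were separate cultures, so p values measure the spread between libraries.

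MicroRNAs and siRNAs act after being loaded onto an Argonaute protein. DICER1 cuts the microRNA precursors, and the TNRC6 (GW182) proteins bind Argonaute and bring in the enzymes that shorten the poly(A) tail of the target mRNA. Silenced mRNAs, Argonaute and TNRC6 proteins gather with the decapping factors, the helicase DDX6 and LSM14 proteins in cytoplasmic granules called P-bodies.

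The promoters of TNRC6A and TNRC6B are shown because these paralogs differed in their values after silencing in SW480. They are RefSeq sequences on GRCh38.p14 from 250 bases before to 50 after the start, with matches to the CCAAT box (CCAAT), the GC box (GGGCGG) and the ETS site (CCGGAAG) on either strand in capitals. Both are on the plus strand.
TNRC6A promoter, chr16:24729401-24729700: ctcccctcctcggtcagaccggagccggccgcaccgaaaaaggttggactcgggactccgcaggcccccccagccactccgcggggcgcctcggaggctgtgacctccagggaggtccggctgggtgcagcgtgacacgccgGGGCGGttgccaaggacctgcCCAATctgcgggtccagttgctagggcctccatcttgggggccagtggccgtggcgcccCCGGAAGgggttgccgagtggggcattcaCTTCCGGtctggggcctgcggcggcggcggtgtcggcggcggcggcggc
TNRC6B promoter, chr22:40044584-40044883: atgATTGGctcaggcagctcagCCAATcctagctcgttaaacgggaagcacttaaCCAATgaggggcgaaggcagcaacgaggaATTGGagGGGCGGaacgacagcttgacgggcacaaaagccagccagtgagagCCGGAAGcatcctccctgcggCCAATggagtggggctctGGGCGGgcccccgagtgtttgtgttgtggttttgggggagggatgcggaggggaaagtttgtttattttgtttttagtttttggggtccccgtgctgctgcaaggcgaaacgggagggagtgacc
The TNRC6A promoter was 73.7% G or C with 1 CCAAT box, 1 GC box and 2 ETS sites, and the TNRC6B promoter was 57.3% G or C with 5, 2 and 1. None of these matches overlapped another. Of the 35116 RefSeq promoters of this length, 34.6% held a CCAAT box, 45.0% a GC box and 10.3% an ETS site. Neither promoter held the cyclic AMP response element (TGACGTCA, in 1.85% of promoters), the C/EBP-ATF response element (TGATGNAA, in 3.62%) or the E-box (CACGTG, in 7.26%). LSM14A and AGO2 had no entry. These are matches of letters only.

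Paralogs can exchange reads where their transcripts are alike, so the coding sequences were compared as words of 31 bases, the default word length of kallisto, with all GENCODE 29 transcripts. The 3 TNRC6 genes shared no word with each other, and neither did LSM14A with LSM14B. AGO1 and AGO3 shared 2 words of 2541 and 2550. The longest identical stretches of AGO1 with AGO3 (bases 1465 to 1496 of the AGO1 coding sequence) and of LSM14A with LSM14B (bases 25 to 54 of LSM14A) are shown because they are the longest runs these paralogs have in common.
AGO1/AGO3 stretch: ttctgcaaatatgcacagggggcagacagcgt
LSM14A/LSM14B stretch: ggcagcaagatcagcctcatctccaaggcg
Pseudogenes shared more. LSM14A shared 15.7% of its words, with AC245052.3 and AL603865.1, and DDX6 shared 20.5%, with DDX6P1 and DDX6P2. Each of these 4 pseudogenes was at 1.75 or less in every library.

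POLR1D lay in every silenced library under every SCR library of its line. Its mean fell from 2116 ± 281 (SD, n = 6) to 1036 ± 183 (n = 6) in SW480 (adjusted p = 0.00099, limma). In HT29 it was 5048 ± 700 (n = 4) in SCR and 3078 ± 452 (n = 4) in silenced libraries (adjusted p = 0.355). Depth was estimated at 13500000 to 27600000 reads a library. EPCAM, KRT8, KRT18, KRT19 and VIL1, markers of colorectal epithelium, were at 722 or more in all libraries, but CDX2 (0 to 7.91) and CDH17 (2.32 to 21.6) were near 0 in the libraries labelled HT29. The 7 epithelial markers summed to 193568 to 226197 in SCR and 200726 to 243065 in silenced HT29 libraries, and to 138160 to 269388 and 184013 to 230938 in SW480. Of these markers KRT19 rose in SW480 (log2 0.70, adjusted p = 0.0226, limma), and its part in the values below was not tested. The 6 markers of other cells (PTPRC, CD3E, COL1A1, COL1A2, PECAM1, ALB) summed to 18.3 to 87.6 in HT29 and 123 to 878 in SW480, with ranges that overlapped between SCR and silenced libraries.

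The first principal component split the 12 SW480 libraries into 2 sides and held 42.0% of the variance. The first side held SCR replicates 1, 2 and 3 and siPOLR1D-2 replicates 1 and 2. The other side held SCR replicates 4, 5 and 6, siPOLR1D-2 replicate 3 and all 3 siPOLR1D-3 libraries, so side and siRNA cannot be told apart for siPOLR1D-3. Differences within each side are given below for TNRC6A, TNRC6B, LSM14A, DDX6, DICER1, the paralog ratios and the genes named from the lists. Within the first side 0 of 15110 genes tested were called (limma), and within the other 1939 of 15553. A missing call on the first side therefore does not show that a gene did not change there.

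Among the scaffold proteins, TNRC6A had a higher mean after silencing in both lines. TNRC6B had a lower mean in SW480, where only the siPOLR1D-2 libraries lay under the SCR range, and a log2 difference of -0.058 in HT29. TNRC6C differed by at most 0.15 on the log2 scale. TNRC6A (ENSG00000090905.18, GENCODE 29, chr16:24610209-24827632, plus strand) ranged in the SW480 SCR libraries from 1196 to 1904 with a median of 1644. It was 4601, 3716 and 3234 with siPOLR1D-2 and 3216, 3169 and 3364 with siPOLR1D-3. All 6 silenced libraries lay above every SCR library, and the mean was 2.19-fold that of SCR (log2 difference 1.13, SE 0.13). The log2 difference was 1.52 on the first side of the principal component and 0.86 on the other.

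HT29 was not used to choose TNRC6A. There it was 1246, 1505, 2149 and 1506 in SCR, 1997 and 2371 with siPOLR1D-2 and 2819 and 3067 with siPOLR1D-3. In 3 of 4 silenced libraries it was above every SCR library, siPOLR1D-2 replicate 1 lying under SCR replicate 3. The difference was 1.61-fold (log2 0.69, SE 0.19), with an adjusted p of 0.358 (limma) and an exact permutation p of 0.0571 (2-sided), where 4 against 4 libraries cannot go below 0.0286. It therefore did not pass the test. The antisense genes AC008731.1 and LINC01567 overlap TNRC6A and had no values under these names in the deposited data. The strand setting of the counting is not given in the sources used here.

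TNRC6B (chr22:40044817-40335808, plus strand), a scaffold of the same family, ranged in SW480 SCR libraries from 1372 to 2590 with a median of 1952. It was 1221, 1253 and 1118 with siPOLR1D-2, and 2061, 1877 and 1890 with siPOLR1D-3. The siPOLR1D-2 libraries lay under every SCR library, as they did for 6.86% of all genes tested, and the siPOLR1D-3 libraries lay inside the SCR range. The pooled log2 difference was -0.36 (SE 0.19, adjusted p = 0.268), and it was -0.71 on the first side of the principal component and -0.16 on the other. In HT29 it was 1137, 925, 990 and 862 in SCR and 720, 1072, 1027 and 965 in silenced libraries, and the groups overlapped (log2 -0.058, adjusted p = 0.895).

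TNRC6C (chr17:77959240-78108835, plus strand) had the lowest value of the family. It was between 280 and 490 in SW480 SCR libraries and between 293 and 576 in silenced ones (log2 0.15, adjusted p = 0.677). In HT29 both groups lay between 212 and 282 (log2 0.050, adjusted p = 0.902). The groups overlapped in both lines.

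**Figure D1:**
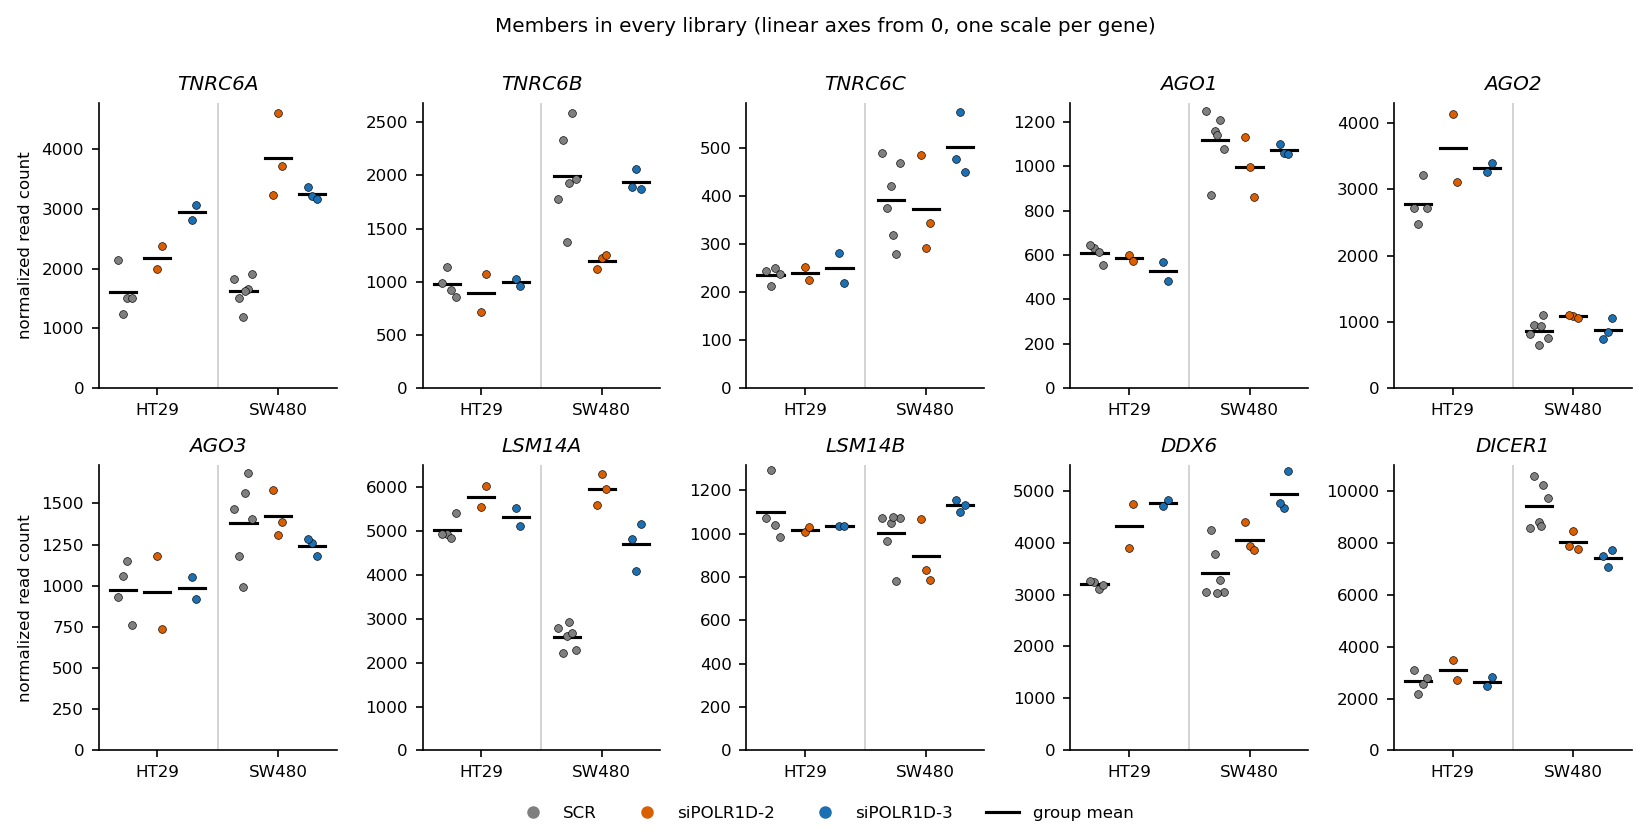
Normalized read counts of the 10 genes (vertical axes, linear from 0) in each library of HT29 and SW480, with SCR in grey, siPOLR1D-2 in orange, siPOLR1D-3 in blue and black lines at group means. TNRC6A and LSM14A of all 6 silenced SW480 libraries sit above every SCR library, and DDX6 does so in all 4 silenced HT29 libraries; the lines were normalized separately, so levels are compared only within a line.

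The balance of the paralogs was taken as a ratio within each library, which does not depend on how libraries were scaled. In SW480 SCR libraries the log2 ratio of TNRC6A to TNRC6B was between -0.64 and 0.040, with TNRC6A above TNRC6B in 1 of 6 (SCR replicate 5, at 0.040). It was between 1.53 and 1.91 with siPOLR1D-2 and between 0.64 and 0.83 with siPOLR1D-3. The mean moved from -0.29 to 1.21, a difference of 1.49 (2.23 on the first side of the principal component and 1.03 on the other) that carries no test because it holds the TNRC6A values used in the choice.

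In HT29 the same log2 ratio was 0.13, 0.70, 1.12 and 0.80 in SCR and 1.47, 1.14, 1.46 and 1.67 in silenced libraries. The groups did not overlap, although SCR replicate 3 and siPOLR1D-2 replicate 2 were 1.12 and 1.14. The difference was 0.75 (exact permutation p = 0.0286, 2-sided, the smallest these numbers of libraries allow). The ratio of TNRC6A to TNRC6C differed by 0.64 in HT29 with an exact permutation p of 0.0571 and by 0.98 in SW480. With the LSM14 ratio below, 3 ratios were tested in HT29, and each had a p of 0.0857 after Benjamini-Hochberg adjustment over the 3.

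**Figure D2:**
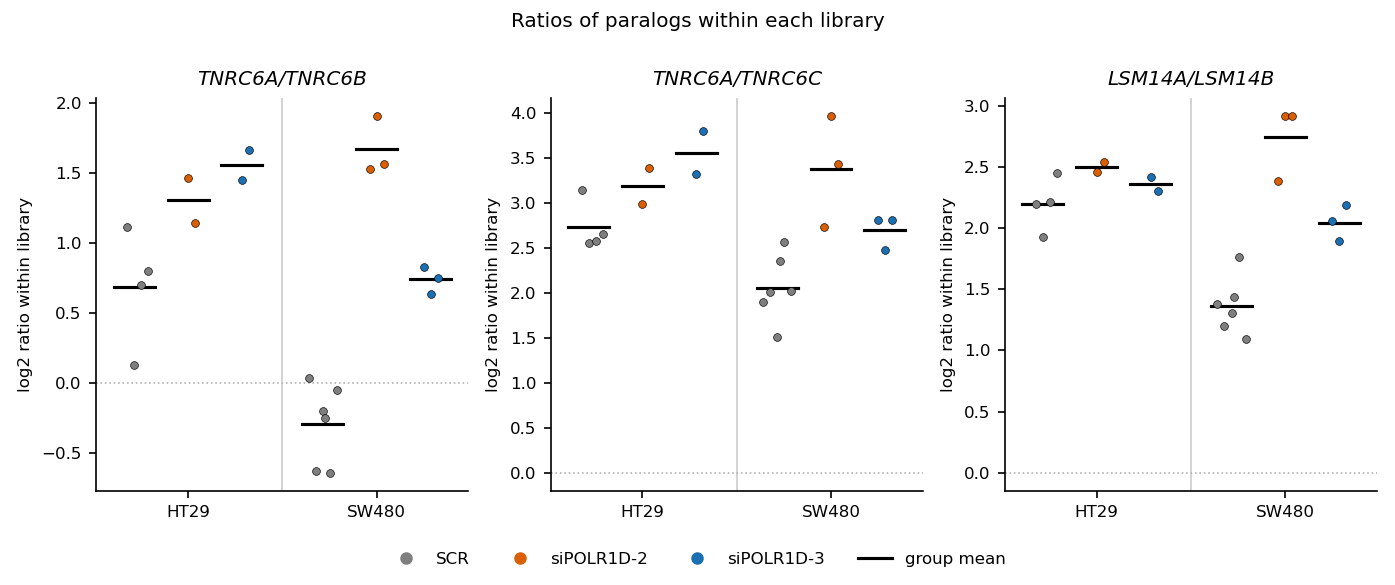
Log2 ratios of TNRC6A to TNRC6B, TNRC6A to TNRC6C and LSM14A to LSM14B within each library (vertical axes), by cell line and siRNA, with black lines at group means. In SW480 the TNRC6A to TNRC6B ratio is above 0.6 in all 6 silenced libraries and at most 0.040 in SCR libraries.

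No Argonaute gene passed the test in either line. AGO2, the Argonaute that can cut its target, was 2476, 3219, 2723 and 2712 in HT29 SCR and 4128, 3107, 3254 and 3392 in silenced libraries. In 3 of 4 silenced libraries it was above every SCR library (log2 0.32, SE 0.12, adjusted p = 0.435, exact permutation p = 0.0571). In SW480 it ranged from 655 to 1099 in SCR and from 744 to 1111 in silenced libraries (log2 0.18, adjusted p = 0.485), and the groups overlapped.

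AGO1 (chr1:35869808-35930528) and AGO3 (chr1:35930718-36072500), which bind the same small RNAs and lie side by side on the plus strand, showed smaller differences. AGO1 was 630, 612, 645 and 555 in HT29 SCR and 598, 574, 567 and 485 in silenced libraries (log2 -0.14, adjusted p = 0.651). In SW480 it ranged from 869 to 1247 in SCR and from 859 to 1129 in silenced libraries (log2 -0.11, adjusted p = 0.588). AGO3 differed by -0.0090 in HT29 (adjusted p = 0.987) and by -0.036 in SW480 (adjusted p = 0.899), with 95% confidence intervals of -0.40 to 0.38 and -0.31 to 0.24.

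DICER1 (chr14:95086228-95158010, minus strand) had lower values in every silenced SW480 library. It ranged from 8598 to 10600 with a median of 9277 in SCR, was 8454, 7768 and 7906 with siPOLR1D-2 and was 7080, 7742 and 7491 with siPOLR1D-3. All 6 silenced libraries lay under every SCR library, which was so for 2.88% of the 15019 genes tested in SW480. The log2 difference was -0.28 (SE 0.083, exact permutation p = 0.00216, 2-sided, the smallest 6 against 6 libraries allow), but the adjusted p over all genes was 0.0560 (limma). Within the first side of the principal component the log2 difference of DICER1 was -0.28 (adjusted p = 0.624, 2 silenced against 3 SCR libraries) and within the other -0.25 (adjusted p = 0.0946), and with the side as a covariate the adjusted p was 0.0377. In HT29 DICER1 was 2163, 2563, 3118 and 2805 in SCR and 3478, 2737, 2478 and 2824 in silenced libraries, and the groups overlapped (log2 0.11, adjusted p = 0.761). The antisense gene DICER1-AS1 overlaps DICER1 and had no values under this name in the deposited data. MIR3173 also overlaps DICER1 and was not analysed here.

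Of the P-body proteins, LSM14A (ENSG00000257103.8, chr19:34172504-34229515, plus strand), which binds DDX6, was about as much higher in silenced SW480 cells as TNRC6A. It ranged from 2220 to 2930 with a median of 2635 in SCR. It was 6303, 5955 and 5589 with siPOLR1D-2 and 4093, 5171 and 4817 with siPOLR1D-3. All 6 silenced libraries lay above every SCR library, and the mean was 2.05-fold that of SCR (log2 1.03, SE 0.11). Within the sides of the principal component the log2 difference was 1.30 and 0.88.

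The choice of LSM14A rested on SW480, but earlier work on these files had also compared its response between the lines, so its HT29 values are not independent of that work. In HT29 LSM14A was 4929, 4840, 4941 and 5411 in SCR and 5557, 6016, 5533 and 5118 in silenced libraries. In 3 of 4 silenced libraries it was above every SCR library, at a log2 difference of 0.14 (SE 0.093, adjusted p = 0.572, exact permutation p = 0.0571). The difference did not pass the test.

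LSM14A was the only one of the 10 genes held in 2 rows of the tables, which carry no further identifier. The first row gave 10.3% to 40.8% of the sum in SW480 and 11.8% to 39.3% in HT29. In SW480 the first row had a mean of 634 ± 211 (SD, n = 6) in SCR and 1366 ± 554 (n = 6) in silenced libraries (log2 1.08), and 5 of 6 silenced libraries were above every SCR library. The second row went from 1950 ± 228 to 3955 ± 1079 (log2 0.98), with 6 of 6 above. In HT29 the first row differed by 0.51, with 3 of 4 above, and the second by -0.0024, with 1 of 4 above. The difference in SW480 was thus present in the means of both rows, and the one in HT29 in that of the first row only, by values with no test. The split between the rows varied within a group. With siPOLR1D-2 in SW480 the first row was 651, 1441 and 2279 and the second 5652, 4513 and 3310. A difference in 1 row, as in HT29, therefore cannot be told apart from how counts were divided between the rows.

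**Figure D3:**
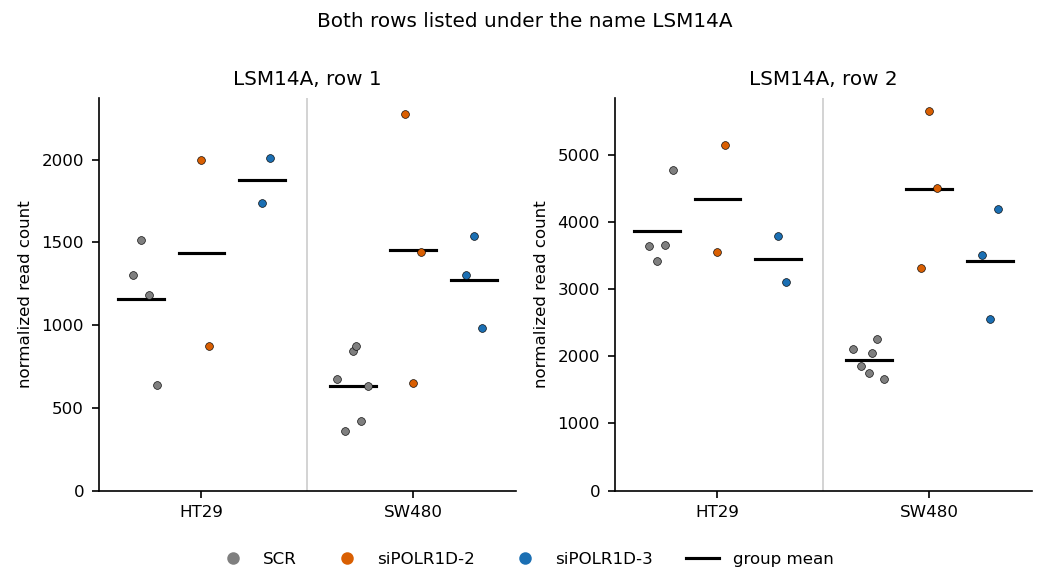
Normalized read counts (vertical axes, linear from 0) of the first and second row named LSM14A in each library, by cell line and siRNA, with black lines at group means. In SW480 silenced libraries the second row lies above every SCR library in 6 of 6 and the first row in 5 of 6.

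LSM14B (chr20:62122461-62135378, plus strand), the paralog of LSM14A, was near the same level in both groups. It ranged from 783 to 1079 in SW480 SCR libraries, was 832, 785 and 1069 with siPOLR1D-2 and was 1102, 1135 and 1157 with siPOLR1D-3. The pooled log2 difference was 0.0048 (95% confidence interval -0.27 to 0.28, adjusted p = 0.988). In HT29 it was 1293, 1040, 1075 and 987 in SCR and 1010, 1030, 1034 and 1037 in silenced libraries (log2 -0.089, adjusted p = 0.757). The log2 ratio of LSM14A to LSM14B was between 1.09 and 1.77 in SW480 SCR and between 1.89 and 2.92 in silenced libraries, with means of 1.42 and 2.92 on the first side of the principal component and 1.30 and 2.13 on the other. In HT29 it was between 1.93 and 2.45 and between 2.30 and 2.55 (difference 0.23, exact permutation p = 0.0857).

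DDX6 (ENSG00000110367.12, chr11:118747766-118791149, minus strand), the helicase on which P-bodies assemble, had a higher mean after silencing in both lines. In HT29 it was 3235, 3112, 3270 and 3175 in SCR, 3892 and 4746 with siPOLR1D-2 and 4704 and 4813 with siPOLR1D-3. All 4 silenced libraries lay above every SCR library, as did 2.72% of the 13274 genes tested in HT29 (4.17% lay below). The difference was 1.41-fold (log2 0.50, SE 0.10) with an exact permutation p of 0.0286, the smallest possible, but the adjusted p was 0.355 (limma).

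In SW480 DDX6 ranged from 3020 to 4250 with a median of 3166 in SCR, was 3932, 3848 and 4388 with siPOLR1D-2 and was 4662, 5377 and 4756 with siPOLR1D-3. SCR replicates 1 and 3, at 3783 and 4250, were the highest controls, and 4 of 6 silenced libraries lay above every SCR library. DDX6 rose 1.32-fold (log2 0.40, SE 0.11, adjusted p = 0.0491, limma; exact permutation p = 0.00866). This call was near the threshold. It was lost when any 1 of 8 of the 12 libraries was left out (SCR replicates 2, 4, 5 and 6, siPOLR1D-2 replicate 3, and each siPOLR1D-3 replicate), with log2 differences of 0.35 to 0.47 and adjusted p values of 0.0324 to 0.105 over all 12 omissions. Within the first side of the principal component, with 2 silenced against 3 SCR libraries, the log2 difference was 0.053 (adjusted p = 0.940, limma). No gene was called on that side (0 of 15110). Within the other side it was 0.65 for DDX6 (adjusted p = 0.00253, limma), and 1939 of 15553 genes were called there. The antisense gene AP002954.1 overlaps DDX6 and had no values under this name in the deposited data.

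DDX6 was thus the 1 member called among the 8 that did not set the choice in SW480, and none of the 8 was called lower. Over all 15019 genes tested, 2.44% were called higher and 4.29% lower, and 1.68% had every silenced library above every SCR library. The median log2 difference of the 8 genes was -0.016, beside 0.013 over all genes tested. In HT29 0 of 10 were called by limma, as were 0% of the 13274 genes tested. At an unadjusted p under 0.05 there were 3 of the 10 (TNRC6A, AGO2 and DDX6) and 10.7% of all genes. The silenced gene POLR1D was itself not called in HT29 by limma. The paper, with DESeq2, reported POLR1D and other genes as changed there. A missing call in HT29 therefore does not show that a gene did not change. All differences are relative amounts in bulk RNA, in which fewer cells and less RNA per cell cannot be told apart.

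**Figure D4:**
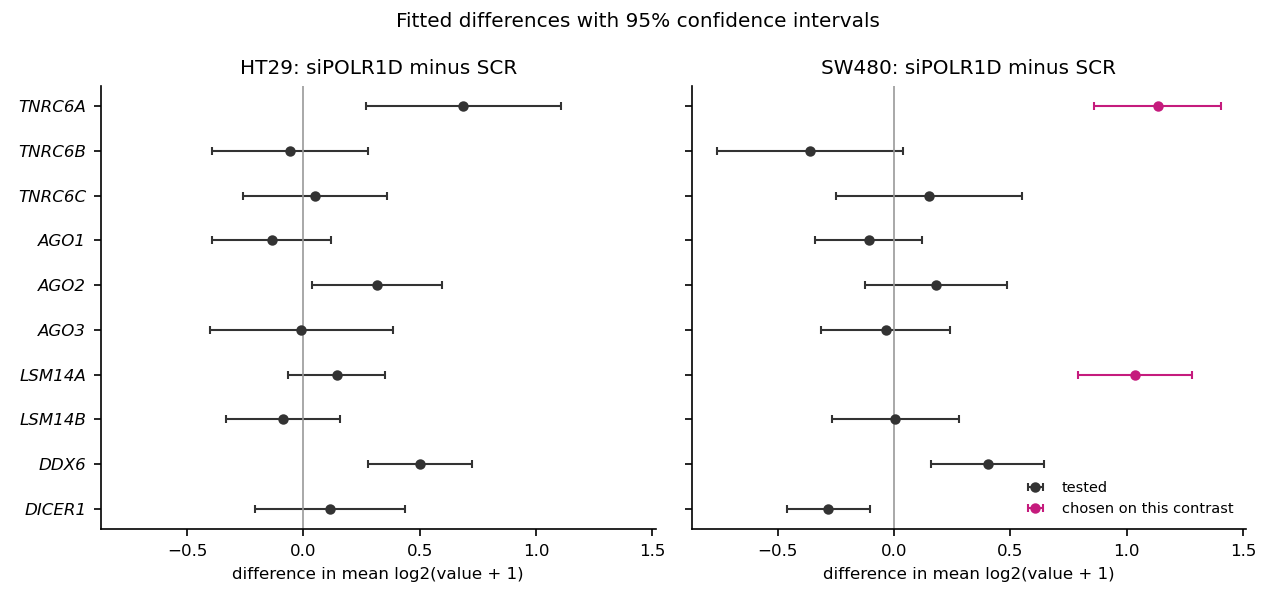
Fitted difference in mean log2(value + 1) between silenced and SCR libraries (horizontal axis) for the 10 genes in HT29 and SW480, with 95% confidence intervals from limma. TNRC6A at 1.13 and LSM14A at 1.03 in SW480, in pink, were chosen on this contrast; DDX6 was at 0.50 in HT29 and 0.40 in SW480.

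Each siRNA was also set against the same SCR libraries. In SW480 the log2 difference of TNRC6A was 1.25 with siPOLR1D-2 and 1.02 with siPOLR1D-3, and that of LSM14A was 1.21 and 0.86. TNRC6B fell by 0.71 with siPOLR1D-2 (SE 0.16, adjusted p = 0.0203, limma) and differed by -0.013 with siPOLR1D-3 (adjusted p = 0.970). Fitted without the siPOLR1D-3 libraries, the siPOLR1D-2 difference of TNRC6B had an adjusted p of 0.0569. DDX6 differed by 0.26 with siPOLR1D-2 (adjusted p = 0.205) and rose by 0.54 with siPOLR1D-3 (adjusted p = 0.0230), and DICER1 differed by -0.23 and -0.34 (adjusted p = 0.162 and 0.0534).

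Of the 8 genes, 1 was thus called lower with siPOLR1D-2, where 5% of all genes were called lower and 3.16% higher. With siPOLR1D-3, 1 was called higher, where 2.15% of all genes were called higher and 4.45% lower. Of the 3 siPOLR1D-3 libraries, all lay above every SCR library for LSM14B, at a log2 difference of 0.18 (adjusted p = 0.412), and for 8.84% of all genes tested. The siPOLR1D-2 and siPOLR1D-3 comparisons share their SCR libraries.

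The direct difference between the siRNAs was estimated without SCR values, but its p values and intervals use the spread of the SCR libraries too. In SW480 it passed the test for 0 of the 10 genes, beside 3.32% of all genes. At an unadjusted p under 0.05 (limma) there were 3 of the 10 (TNRC6B, LSM14A and LSM14B), beside 21.8% of all genes. All siPOLR1D-3 libraries lie on 1 side of the principal component, so this difference and the side cannot be told apart except for siPOLR1D-2 replicate 3, which lies on that side too. The difference was largest for TNRC6B, at 0.70 higher with siPOLR1D-3 (95% confidence interval 0.29 to 1.11, adjusted p = 0.0614, limma). This gene passed when SCR replicate 1 or 2 was left out (adjusted p = 0.0217 and 0.0388, limma), with the difference still at 0.70. LSM14A was 0.35 lower on the log2 scale with siPOLR1D-3 (difference -0.35, 95% confidence interval -0.63 to -0.063, adjusted p = 0.151) and LSM14B 0.35 higher (0.021 to 0.68, adjusted p = 0.204).

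In HT29, where each siRNA had 2 libraries, TNRC6A differed from SCR by 0.47 with siPOLR1D-2 and 0.91 with siPOLR1D-3, and DDX6 by 0.43 and 0.57. AGO2 differed by 0.37 and 0.26, and LSM14A by 0.20 and 0.083. No difference between the siRNAs passed the test among the 10 genes or among all genes (0%). None of the 10 had an unadjusted p under 0.05 (limma), beside 1.56% of all genes. The 95% confidence interval of the siPOLR1D-3 minus siPOLR1D-2 difference was -0.12 to 0.98 for TNRC6A and -0.18 to 0.47 for DDX6.

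The response of the lines was compared as an interaction over all 20 libraries, the SW480 difference minus the HT29 difference. It was 0.89 for LSM14A (SE 0.16), a gene that earlier work on these files had singled out by the same test, and 0.44 for TNRC6A (95% confidence interval -0.027 to 0.92). Both contain the SW480 values that set the choice and are given without a p. Of the other 8 genes 0 passed (limma), beside 0.0393% of the 12724 genes tested in both lines. At an unadjusted p under 0.05 there was 1 of the 8, DICER1 (difference -0.40, adjusted p = 0.461, limma), beside 8.58% of all genes. For DDX6 the difference was -0.098 (-0.43 to 0.24, adjusted p = 0.928, limma).

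Other genes of the pathways were read from 4 lists. Of 24 other RNA silencing factors, 23 were tested in SW480, and 1 rose and 2 fell, with a median log2 difference of 0.038. These numbers, and those of the other lists, are to be read beside the 2.44% of all genes called higher and 4.29% called lower. EIF4E2, a cap-binding protein that holds back translation, rose from 781 ± 111 (SD, n = 6) to 1128 ± 186 (n = 6) (log2 0.53, adjusted p = 0.0278). AJUBA, a LIM protein that binds Argonaute, fell from 671 ± 210 to 383 ± 88 (log2 -0.79, adjusted p = 0.0356). SND1, a nuclease found with Argonaute, fell from 10684 ± 862 to 7924 ± 366 (log2 -0.43, adjusted p = 0.0080). AGO4, the remaining Argonaute, was low and variable, at 50.5 to 251 in SCR and 80.4 to 419 in silenced SW480 libraries (log2 0.63, SE 0.42, adjusted p = 0.390).

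Of 26 decapping and P-body genes tested in SW480 (27 listed), 0 rose and 1 fell, with a median of 0.036. The gene that fell was DCP1A, a decapping cofactor, from 899 ± 155 to 639 ± 81 (log2 -0.48, adjusted p = 0.0391). Of 21 deadenylation genes, 1 rose and 1 fell, with a median of -0.090. TOB1, an adaptor of the CCR4-NOT deadenylase, rose from 381 ± 63 to 546 ± 33 (log2 0.53, adjusted p = 0.0216), and PABPC4, a poly(A)-binding protein, fell from 3757 ± 563 to 2696 ± 466 (log2 -0.48, adjusted p = 0.0366). These 6 named genes were called on the same SW480 libraries, so their signs within the sides of the principal component are a description. Each kept its sign on both sides. On the first side the log2 differences ran from -0.46 (SND1) to 0.55 (EIF4E2), with adjusted p values of 0.450 to 0.624 (limma). On the other side they ran from -1.13 (AJUBA) to 0.53 (TOB1), and DCP1A had an adjusted p of 0.0508 (limma). None of 10 stress granule genes passed, with a median of 0.022. In SW480 23.2% of all genes tested had an unadjusted p under 0.05 (limma). So did 9 of 23 other RNA silencing factors and 10 of 26 decapping and P-body genes. It was also so for 7 of 21 deadenylation genes and 2 of 10 stress granule genes. Whether these counts differ from that share was not tested. In HT29 0 genes passed in any of the 4 lists. There 0, 3, 3 and 0 had an unadjusted p under 0.05 (limma), beside 10.7% of all genes. The HT29 medians were -0.040, -0.040, -0.030 and 0.11 beside 0.00019 over all genes tested.

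Levels of different genes were compared per kilobase of coding sequence in the SCR libraries. In HT29 LSM14A was highest, at 3622 ± 186 (SD, n = 4) normalized read counts per kilobase, followed by DDX6 at 2207 ± 48. AGO2 (1080 ± 121) and LSM14B (951 ± 116) came next and did not differ beyond their ranges. DICER1 (462), AGO3 (378), TNRC6A (272) and AGO1 (238) followed with ranges that overlapped from each to the next, then TNRC6B (178 ± 21), and TNRC6C was lowest at 40.5 ± 2.9.

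In SW480 the order of levels per kilobase was DDX6 (2351 ± 347, n = 6), LSM14A (1860 ± 201) and DICER1 (1637 ± 151), neighbours in this order overlapping in range. LSM14B (870 ± 101) stood apart below them. AGO3 (536), AGO1 (434), TNRC6B (363), AGO2 (338) and TNRC6A (276) again overlapped from each to the next, and TNRC6C was lowest at 67.3 ± 14.3. With the mean length of the coding transcripts in place of the coding length, 2 of 10 genes in HT29 and 5 of 10 in SW480 kept their rank, TNRC6C staying lowest in both. DICER1 was then at rank 1 in SW480 and DDX6 at rank 3 in both lines, LSM14B was at rank 2 in HT29, and TNRC6A moved from rank 9 to rank 5 in SW480. The lines were normalized apart, so no level was tested between them.

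**Figure D5:**
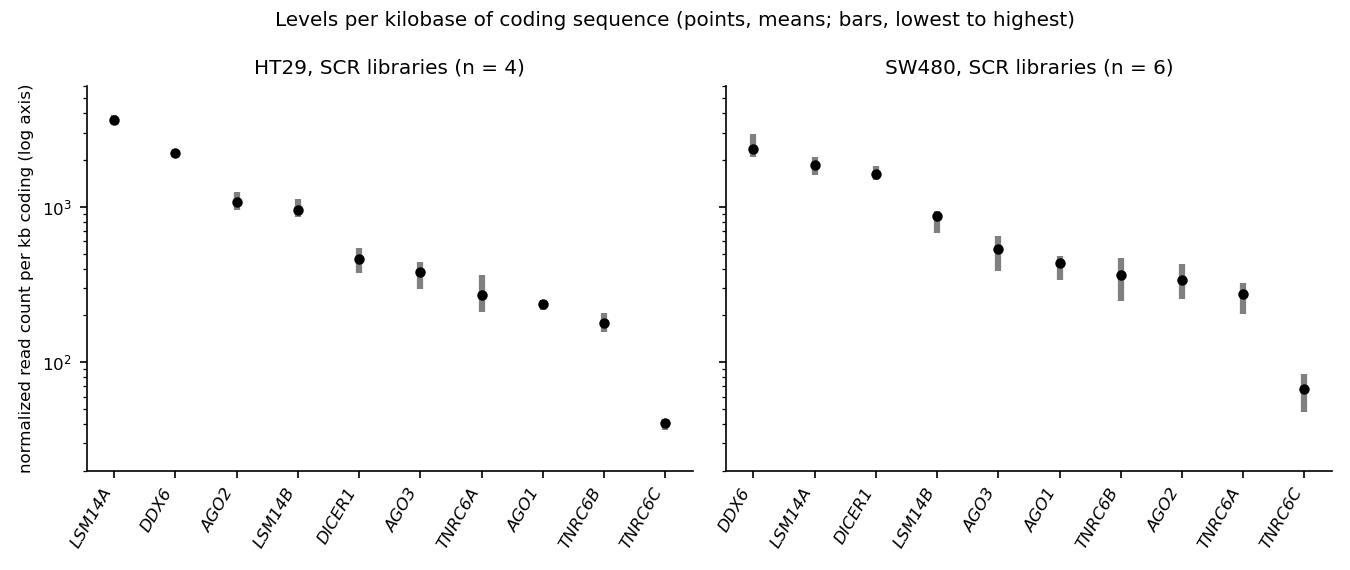
Normalized read counts per kilobase of coding sequence (log axis) of the 10 genes in SCR libraries of HT29 (n = 4) and SW480 (n = 6), ordered by mean, with points at means and bars from the lowest to the highest library. On this scale TNRC6C is lowest in both lines, and LSM14A and DDX6 have the highest means, with ranges that overlap each other in SW480; with the mean transcript length, 2 of 10 ranks in HT29 and 5 of 10 in SW480 are kept.

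The genes whose pattern over the 12 SW480 libraries was most like TNRC6A were found by the root mean square difference of centred log2 values. They were TLN1 (0.18), a cytoskeletal adaptor, LSM14A (0.22), SRR (0.24), a racemase, XPR1 (0.25), a phosphate exporter, and ANO10 (0.26). Most like LSM14A were RTF1 (0.15), a transcription elongation factor, SAR1B (0.16), a GTPase of vesicle transport, TP53TG5 (0.20), GALNS (0.20), a lysosomal sulfatase, and FSD1 (0.21). TNRC6A was at rank 8 for LSM14A. These likenesses are a description of the libraries that set the choice. In HT29 the log2 differences of the 9 genes other than TNRC6A and LSM14A ran from -0.30 (FSD1) to 0.50 (SRR).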

How the data were processed

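RNA libraries of HT29 and SW480 cells were made with the TruSeq RNA Exome kit and sequenced as paired-end reads. Per the labels and methods, the authors quantified them with kallisto (0.44.0), and the submitters' processing notes also name FastQC (0.11.5), DESeq2 (1.24.0) and hg38. The annotation release is not given in the sources used here. The authors deposited, for each library, a signal value per gene, that is, a count scaled by DESeq2 separately for each line. Only 21.9% to 49.3% of values up to 20 were whole multiples of the value taken as 1 read (tolerance 0.01), so reads were not recovered and no count test was run. Depth, estimated from that value, was 13500000 to 27600000 reads.

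The 40117 rows were summed to 36346 gene names. A gene was tested if it reached 10 in a number of libraries no less than the size of the smaller group, with limma (3.58.1, R 4.3.3) on log2(value + 1) with a mean-variance trend, no covariate and Benjamini-Hochberg adjustment over all genes, at 0.05. Fold changes are on that scale and understate changes of low genes. For single genes an exact permutation test was added, on the difference in mean log2 value. The members and the lists were chosen with earlier results of these data known. Named from the lists were genes past the threshold, at most 4 per list and direction, and the 5 genes most like TNRC6A and LSM14A. Alternatives were scaling, pseudocount, filter, choice of row, empirical Bayes settings, replicate block, each siRNA alone, a joint fit, libraries left out, threshold, and the side of the first principal component of the SW480 libraries. Gene positions and transcripts are from GENCODE 29 (GRCh38), promoters from RefSeq (GRCh38.p14).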

Additional observations from a re-analysis of the deposited data

Results flagged for a closer look

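DDX6 in HT29 siPOLR1D-2 replicate 1 was 3892, apart from the other 3 silenced HT29 libraries, the nearest of which was 4704. The gap was 0.88 of the range of the 4 libraries. Chance flags about 1 in 20 groups, and 40 groups were examined. Without this library the log2 difference of DDX6 in HT29 was 0.57 (0.50 with it).

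The response of LSM14A in SW480 minus that in HT29 was 0.89 on the log2 scale. With each of the 20 libraries left out in turn it was between 0.84 and 0.97. It was flagged by limma's interaction test, which had already singled out LSM14A in earlier work. The flag was lost when any 1 of 13 of the libraries was left out. LSM14A was also chosen on its SW480 values, so no p is given. The value is a description and shows no difference between the lines by itself.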

How the results depend on the processing

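In SW480 the count of called genes among the 8 was 1 (DDX6). It was 2 (DDX6 and DICER1) with a filter at 50, at a threshold of 0.1 and with the side of the first principal component as a covariate. It was 0 with no filter on low values, robust empirical Bayes, no trend, siPOLR1D-2 alone and within the first side. Within the first side 0 of all 15110 genes tested were called. Leaving out each library gave 0 to 2, DICER1 being added without SCR replicate 1. The DDX6 call was lost in 14 of 28 alternatives. Same-numbered libraries had a mean correlation of -0.037 in HT29 and -0.015 in SW480 (-0.595 to 0.391 in SW480). Values were first centred within each group, which pulls such means towards 0. The means therefore do not decide whether replicate numbers pair the libraries. SCR replicates 4, 5 and 6 in SW480 and 3 and 4 in HT29 share their number with no silenced library. They add nothing to the difference in a fit with the replicate block. In that fit 0 of the 8 genes were called in SW480 (0 of all 15019 genes, against 1011 with no block). In HT29 1 of the 10 was called (TNRC6A, adjusted p = 0.0378, limma), where 735 of all 13274 genes (5.54%) were called, against 0 with no block. For the difference between siRNAs in SW480, upper quartile scaling gave 1 (TNRC6B) and leaving out libraries 0 to 1; the other libraries or settings tried gave 0, as in HT29. With the mean transcript length, 2 (HT29) and 5 (SW480) genes kept their rank. The TNRC6A to TNRC6B ratio in HT29 differed by 0.56 to 0.89 with libraries left out, where an exact permutation test of 4 against 3 libraries cannot go below 0.0571. Directions turned in the cases below. Those of the HT29 siRNA difference, with 2 libraries for each siRNA, were not all small. In SW480 TNRC6C was -0.073 with siPOLR1D-2 alone and -0.15 within the first side. AGO3 was 0.031 with upper quartile scaling, 0.081 with the replicate block, 0.063 with siPOLR1D-2 alone and 0.10 within the first side, and -0.13 to 0.026 with libraries left out. LSM14B was -0.17 with siPOLR1D-2 alone, -0.051 with the covariate, -0.20 within the first side and -0.065 to 0.075 with libraries left out. In HT29 TNRC6B was 0.033 with siPOLR1D-3 alone, AGO3 was 0.042 with upper quartile scaling and 0.030 with siPOLR1D-3 alone, and LSM14A was -0.0024 from its row with the highest mean. Ranges with HT29 libraries left out were -0.12 to 0.068 (TNRC6B), -0.020 to 0.099 (TNRC6C) and -0.12 to 0.12 (AGO3). For the HT29 siRNA difference they were -0.11 to 0.47 (TNRC6B), -0.12 to 0.24 (TNRC6C), -0.31 to 0.097 (AGO2) and -0.26 to 0.41 (AGO3). For the interaction they were -0.042 to 0.080 (AGO1) and -0.15 to 0.085 (AGO3). The cause was not tested.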
